A study of Mus musculus with 32 samples.

Results

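The mouse genes with symbols of the form Zfp900 to Zfp999 encode zinc finger proteins, and 58 of the 27179 genes in the deposited DNA methylation table carried such a symbol. They were taken by symbol alone, with no measured value used, and 2 symbols with a letter after the number were left out. Their numbers ran from 930 to 995. Brain, heart, kidney and liver were harvested from mice and kept either as formalin-fixed, paraffin-embedded (FFPE) blocks or flash frozen. Methylated DNA was pulled down with an antibody against 5-methylcytosine (5mC) and sequenced (MeDIP-seq), and unselected DNA (Input) was also listed. The labels list 32 samples in 16 groups of 2, but the table has 1 column for each organ and preservation, 8 in all, called libraries here. Strain, age and genotype of the animals are not stated in the labels, which list no treatment other than preservation and do not tie samples to separate animals.

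Many mouse zinc finger proteins of this kind carry a KRAB domain beside an array of C2H2 fingers. The fingers bind DNA, often inside transposable elements, and the KRAB domain recruits the corepressor TRIM28 (KAP1), which brings the histone methyltransferase SETDB1 and HP1 proteins and leads to H3K9me3 and, in early embryos, to lasting DNA methylation. Such genes lie in clusters that grow by duplication, so neighbours are often close copies of each other. Zfp932 is known to silence endogenous retroviruses, and Zfp979, also listed as Ssm1b, is known as a strain-specific modifier of transgene methylation.

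Each gene's value is a read count scaled to the size of its library, in log2 CPM. It sums the 5mC signal over whatever part of the gene was counted, which is not given, so promoter and gene body signal cannot be separated. Because the tissues are mixtures of cells, a change in cell composition and a change in methylation per cell cannot be told apart. Input was not analysed here, so copy number and the yield of reads from a gene also enter its value. The reads recovered from the table totalled 2164158 to 3699218 per library. A gene had a median of 36 to 63 reads per library, and the 58 Zfp genes had medians of 40 to 62.5, which limits what can be seen for a single gene. Frozen kidney stood apart, with 2999 genes at 0 reads against 880 to 2380 in the other 7 libraries. Signal over hepatocyte genes fell in liver for 9 of 10 markers, with 7.42% of all tested genes lower there, and signal over neuron genes fell in brain for 4 of 10, with 12.8% lower. Over cardiomyocyte genes it fell in heart for 2 of 10, with 1.97% lower. Over proximal tubule genes it fell in kidney for 0 of 10 in the limma test, with 1 at an unadjusted p under 0.05 and 0.566% of all tested genes lower, so this list did not set kidney apart. Of 6 leukocyte genes, 2 rose in brain, with 8.61% of all tested genes higher there, and 1 fell in liver. Of 6 endothelial genes, 1 rose in brain, 2 fell in heart, and 2 rose and 1 fell in liver, with 11.8% of all tested genes higher in liver. The other lists also had calls outside their own organ. Of hepatocyte genes 3 rose in brain. Of neuron genes 3 rose in liver and 1 in kidney, with 0.897% higher in kidney. Of cardiomyocyte genes 2 rose in liver and 1 fell in brain, and of proximal tubule genes 1 rose in brain and 1 fell in liver. The part of cell composition in the organ differences was not tested.

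All 58 genes passed the filter of at least 1 CPM in at least 2 libraries, as did 25982 of the 27179 genes. A position was found for 57 of them, on 12 chromosomes, and Zfp986 had none. In all, 31 lay in 5 clusters of 3 or more genes with gaps of at most 500 kb. The chromosome 4 cluster held 11 of them in 2.18 Mb (chr4:145670697-147849126, GRCm38.p6): Zfp980, Zfp987, Zfp992, Zfp981, Zfp993, Zfp991, Zfp982, Zfp985, Zfp979, Zfp984 and Zfp933. The chromosome 17 cluster held 10 in 1.30 Mb (chr17:21565816-22867309), from Zfp948 to Zfp945. Smaller clusters of 4, 3 and 3 genes lay on chromosomes 7, 2 and 8. On distal chromosome 2, Zfp967, Zfp973, Zfp970, Zfp971 and Zfp931 followed the cluster of Zfp968, Zfp965 and Zfp966 at wider gaps, and the 8 together are called the chromosome 2 family here, a grouping made after their positions were seen.

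RefSeq promoter windows of 300 bases (GRCm38.p6) were matched to 52 of the 58 genes, all but Zfp930, Zfp934, Zfp960, Zfp986, Zfp991 and Zfp992. The 7 windows below belong to genes that the results turn on, and capitals mark CpG, the dinucleotide where most 5mC of mammalian tissue lies, though neurons of the adult brain also carry it outside CpG. Zfp987 (chr4:146097062-146097361, + strand) and Zfp981 (chr4:146514670-146514969, + strand) differed between FFPE and frozen tissue in opposite directions. Zfp980 (chr4:145670447-145670746, + strand) and Zfp984 (chr4:147809739-147810038, - strand) lie near the 2 ends of the same cluster and differed between organs. Zfp966 (chr2:175931051-175931350, - strand) shows a window that its copy Zfp967 (chr2:176520754-176521053, + strand) repeats base for base. Zfp956 (chr6:47953140-47953439, + strand) and Zfp941 (chr7:140822129-140822428, - strand) were the genes with lower signal in brain.
Zfp987: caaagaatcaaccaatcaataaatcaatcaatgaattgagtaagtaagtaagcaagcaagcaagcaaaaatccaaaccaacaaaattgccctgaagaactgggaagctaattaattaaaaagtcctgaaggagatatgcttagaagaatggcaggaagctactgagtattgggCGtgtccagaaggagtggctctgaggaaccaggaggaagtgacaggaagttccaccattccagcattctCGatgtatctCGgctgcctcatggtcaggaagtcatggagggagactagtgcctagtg
Zfp981: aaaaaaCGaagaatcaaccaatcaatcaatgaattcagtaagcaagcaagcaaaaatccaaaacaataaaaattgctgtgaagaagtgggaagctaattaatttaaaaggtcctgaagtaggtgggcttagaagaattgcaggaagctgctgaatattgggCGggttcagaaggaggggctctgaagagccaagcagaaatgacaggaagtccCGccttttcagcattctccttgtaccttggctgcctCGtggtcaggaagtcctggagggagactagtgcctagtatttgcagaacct
Zfp980: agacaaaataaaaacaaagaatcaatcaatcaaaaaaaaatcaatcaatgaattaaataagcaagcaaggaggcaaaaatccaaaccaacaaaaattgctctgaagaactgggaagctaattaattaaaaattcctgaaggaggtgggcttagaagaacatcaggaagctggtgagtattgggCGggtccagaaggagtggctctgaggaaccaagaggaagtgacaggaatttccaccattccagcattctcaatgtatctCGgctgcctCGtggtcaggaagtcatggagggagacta
Zfp984: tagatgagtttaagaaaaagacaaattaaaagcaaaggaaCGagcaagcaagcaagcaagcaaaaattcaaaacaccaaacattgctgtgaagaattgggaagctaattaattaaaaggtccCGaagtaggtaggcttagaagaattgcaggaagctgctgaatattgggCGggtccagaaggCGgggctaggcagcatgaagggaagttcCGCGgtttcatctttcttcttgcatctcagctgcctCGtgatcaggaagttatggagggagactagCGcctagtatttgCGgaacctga
Zfp966: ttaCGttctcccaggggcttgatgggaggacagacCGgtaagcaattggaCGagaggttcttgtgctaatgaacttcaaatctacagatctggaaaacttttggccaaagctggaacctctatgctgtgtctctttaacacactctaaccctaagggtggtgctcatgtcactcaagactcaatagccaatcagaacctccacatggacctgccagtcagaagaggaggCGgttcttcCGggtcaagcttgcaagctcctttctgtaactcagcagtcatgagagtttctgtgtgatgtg
Zfp956: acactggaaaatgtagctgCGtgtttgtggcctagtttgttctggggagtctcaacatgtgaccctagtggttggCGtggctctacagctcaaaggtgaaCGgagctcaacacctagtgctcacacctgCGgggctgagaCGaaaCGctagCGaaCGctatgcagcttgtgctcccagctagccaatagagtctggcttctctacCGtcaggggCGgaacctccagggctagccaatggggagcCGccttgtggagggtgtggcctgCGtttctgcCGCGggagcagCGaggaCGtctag
Zfp941: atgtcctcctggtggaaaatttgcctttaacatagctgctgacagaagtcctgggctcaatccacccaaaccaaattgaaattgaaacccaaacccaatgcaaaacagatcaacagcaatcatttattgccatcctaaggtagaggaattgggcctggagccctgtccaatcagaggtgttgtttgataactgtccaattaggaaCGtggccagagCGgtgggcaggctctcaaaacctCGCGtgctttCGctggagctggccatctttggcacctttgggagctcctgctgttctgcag

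The windows held a median of 8 CpG, with a range of 3 to 24, against 16 in 273 windows of the other numbered Zfp genes, 13 in 18458 windows of all genes in the table and 7 in all 27025 RefSeq windows. Windows with 15 or more CpG made up 15.4% of the 52, against 53.1% of the other Zfp windows, 46.7% of all genes in the table and 35.2% of all RefSeq windows. The median was thus lower than in both sets from the table but not than in all RefSeq windows. Zfp987 and Zfp980 had 3 CpG each, Zfp981 had 4, Zfp941 and Zfp966 had 5 each, Zfp984 had 9 and Zfp956 had 16. These are counts in the reference sequence, and no difference between the sets was tested.

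**Figure D1:**
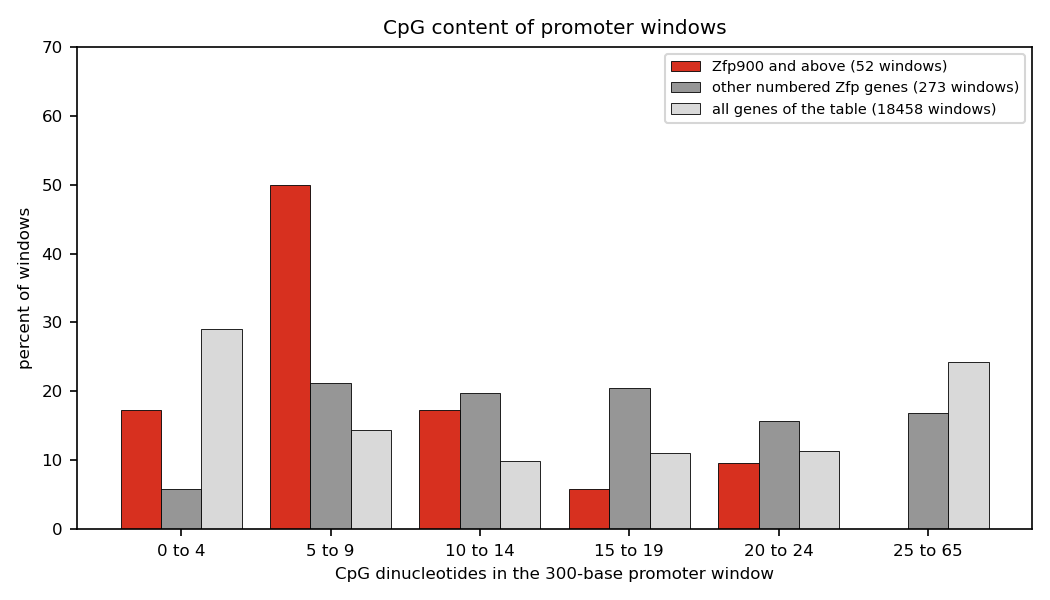
Percent of promoter windows (vertical axis) by number of CpG dinucleotides in 300 bases (horizontal axis) for the 52 windows of Zfp900 and above, 273 windows of other numbered Zfp genes and 18458 windows of all genes in the table. Of the 52 windows, 50.0% held 5 to 9 CpG and none held 25 or more.

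Several windows were near copies. Of 1326 pairs of windows, 18 were at least 90% identical over 300 bases, and all 18 pairs joined genes of 1 chromosome, 13 genes in total. The windows of Zfp966 and Zfp967 were 100% identical, those of Zfp968 and Zfp973 were 99.7% identical, and those of Zfp965 and Zfp971 were 97.0% identical. In the chromosome 4 cluster, Zfp979 and Zfp980 were 91.0% identical, and Zfp981 and Zfp987 were 81.7% identical. The longest run shared by the printed windows of Zfp987, Zfp981, Zfp980 and Zfp984 was TGGGAAGCTAATTAATT, 17 letters. Searched on both strands, it stood in 5 of the 9 chromosome 4 windows (Zfp980, Zfp981, Zfp984, Zfp985 and Zfp987), in 0 of the 43 other windows, in 1 of 273 windows of other Zfp genes and in 0.0296% of 27025 RefSeq windows. The run was chosen on 4 of the windows counted here. The 5 letters ATTGG, which read CCAAT on the other strand, stood in 75.0% of the 52 windows, against 43.6% of the other Zfp windows and 38.0% of all RefSeq windows. These letters were not set in advance, near copies among the 52 windows were each counted, and the difference was not tested. The windows of Zfp942 and Zfp943 point away from each other and share 194 bases. The labels do not say how reads that match several copies were assigned, so values of near-identical copies are uncertain.

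The genes carried 5mC signal in all 4 organs at levels that differed widely between them. Per kilobase of gene, the mean over the 8 libraries was highest for Zfp941 at 5.79 CPM per kb, followed by Zfp971 at 5.65, Zfp970 at 5.58, Zfp956 at 4.81 and Zfp931 at 3.45 CPM per kb. Zfp971, Zfp970 and Zfp931 belong to the chromosome 2 family. The lowest were Zfp993 at 0.0496 CPM per kb, Zfp950 at 0.0743, Zfp951 at 0.169, Zfp934 at 0.170 and Zfp938 at 0.233 CPM per kb. Zfp993 has an annotated span of 478623 bases that overlaps Zfp981 and 5 other genes of the table. The median was 0.823 CPM per kb over the 57 placed genes, against 2.19 CPM per kb over other numbered Zfp genes and 1.42 CPM per kb over all tested genes. Not divided by length, the median of mean log2 CPM was 4.33 in the 58 genes. It was 5.44 in other Zfp genes and 4.21 in all tested genes, so the order against all tested genes depends on the division by length. Across 57 genes the correlation of mean log2 CPM with log2 length was 0.04 (Pearson) and 0.09 (Spearman), against 0.61 and 0.59 across 24357 tested genes. These are descriptions across genes, which share libraries and depth.

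Across the 8 libraries the same genes varied about as much as others, with a median SD of 0.50 log2 units, against 0.49 in other Zfp genes and 0.56 in all tested genes. Frozen brain gave the highest value for 14 of the 58 genes, while frozen liver gave the lowest for 16 and frozen kidney for 13. Zfp938 had the fewest reads of the set, 79 in total, and was the gene with 0 reads in a library. It had 14, 11, 4 and 10 reads in FFPE brain, heart, kidney and liver, against 19, 16, 0 and 5 in frozen brain, heart, kidney and liver. The 0 in frozen kidney allows up to 3 reads, or 0.911 CPM, counting error only. Its kidney difference had an adjusted p of 0.105 in limma and was not called.

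**Figure D2:**
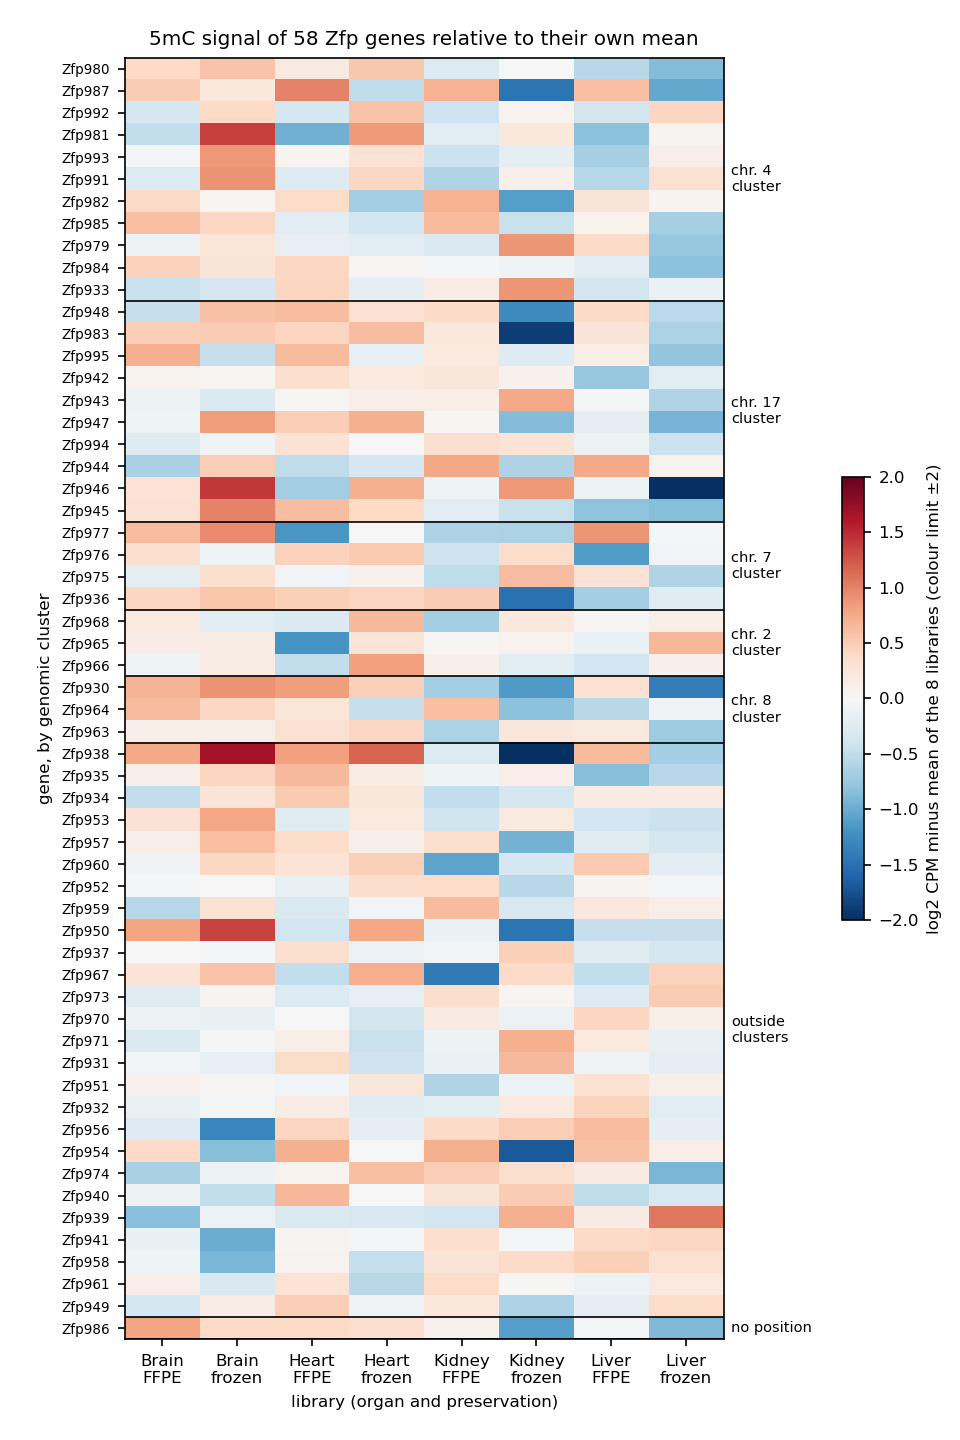
Each row is 1 of the 58 genes, ordered by genomic cluster, and each column 1 library, with FFPE left of frozen for each organ. Colour gives log2 CPM minus the gene's own mean over the 8 libraries. Alternating colours between FFPE and frozen columns stand out in the chromosome 4 rows of Zfp987 and Zfp981, and blue cells gather in frozen kidney and frozen liver.

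The design asks how FFPE tissue compares with frozen tissue of the same organ, and 4 of the 58 genes differed, all in the chromosome 4 cluster. Zfp987 rose in FFPE tissue, and Zfp992, Zfp981 and Zfp991 fell. With 1 library per organ and preservation, the test was limma's moderated test of the mean FFPE minus frozen difference over the 4 organs, with 3 residual degrees of freedom. Calls have a Benjamini-Hochberg adjusted p under 0.05 over all 25982 genes. The 4 calls were 6.90% of the 58 genes, with 1.35% of all tested genes called in this comparison (0.620% higher and 0.735% lower in FFPE). Whether the set differs from other genes was not tested.

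Zfp987 had 5.13, 5.63, 5.32 and 5.24 log2 CPM in FFPE brain, heart, kidney and liver, against 4.84, 4.12, 3.16 and 3.60 in frozen brain, heart, kidney and liver. All 4 FFPE values lay above all 4 frozen values, and the frozen values were the more spread, with kidney lowest. The difference was 1.40 ± 0.27 log2 units (SE), a 2.64-fold higher signal (adjusted p = 0.0119, limma), and its sign was the same in 4 of 4 organs.

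Zfp981 went the other way, with 3.86, 3.40, 4.15 and 3.53 log2 CPM in FFPE brain, heart, kidney and liver, against 5.72, 5.21, 4.56 and 4.40 in frozen brain, heart, kidney and liver. The groups did not overlap, and the gap was widest in brain and heart. The difference was -1.24 ± 0.28 (adjusted p = 0.0352, limma), or 2.36-fold lower in FFPE. The annotated span of Zfp981 overlaps Zfp993 and 1700095A21Rik, so reads from these genes may not be told apart. Zfp993 had a difference of -0.54 ± 0.23, with the same sign in 4 of 4 organs, and was not called (adjusted p = 0.42, limma).

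Zfp992 had 5.42, 5.42, 5.35 and 5.40 log2 CPM in FFPE brain, heart, kidney and liver, against 6.15, 6.33, 5.82 and 6.19 in frozen brain, heart, kidney and liver. The FFPE values were nearly level across organs and all lay below the frozen ones, with a difference of -0.73 ± 0.15 (adjusted p = 0.0213, limma). Zfp991 had 4.55, 4.56, 4.22 and 4.26 log2 CPM in FFPE brain, heart, kidney and liver, against 5.72, 5.24, 4.93 and 5.13 in frozen brain, heart, kidney and liver. Its groups did not overlap either, and the difference was -0.86 ± 0.20 (adjusted p = 0.0475, limma).

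**Figure D3:**
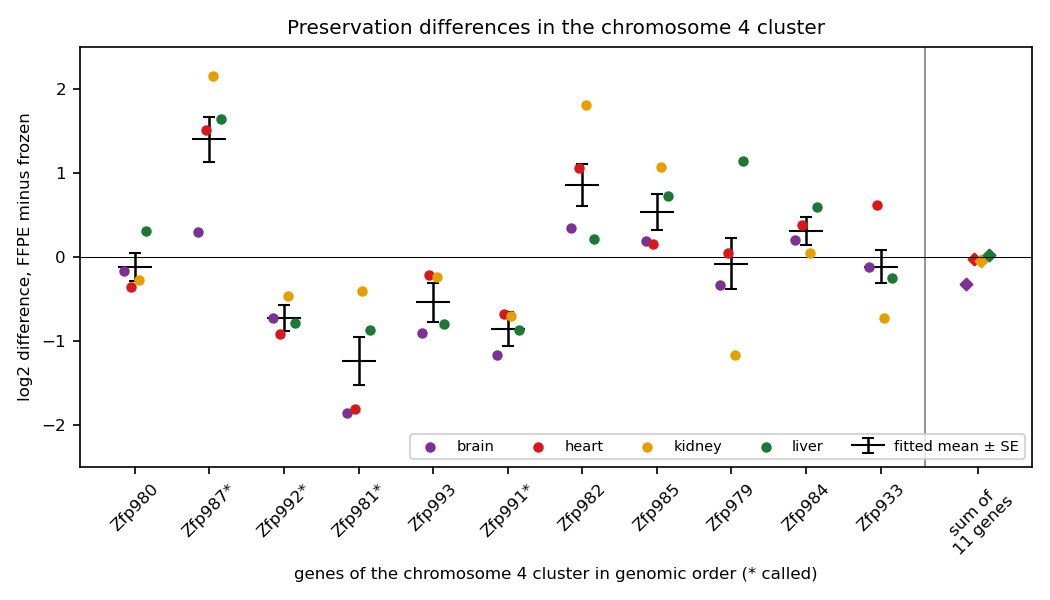
FFPE minus frozen difference in log2 CPM (vertical axis) for the 11 genes of the chromosome 4 cluster in genomic order, with 1 point per organ and the fitted mean ± SE as a black bar; diamonds at the right give the log2 difference of the summed signal of the 11 genes. Zfp987 has all 4 points above 0 and Zfp992, Zfp981 and Zfp991 have all 4 below 0, while the diamonds lie between -0.33 and 0.02.

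The summed signal of its 11 genes differed by -0.33 in brain, -0.02 in heart, -0.05 in kidney and 0.02 in liver (log2, FFPE minus frozen). Counted by gene, the median difference was -0.12, with 7 of 11 genes negative and medians of -0.17 in brain, 0.05 in heart, -0.27 in kidney and 0.22 in liver, so sum and median differ in sign in heart. Within the cluster 4 genes were higher in FFPE in all 4 organs (Zfp987, Zfp982, Zfp985 and Zfp984) and 4 lower in all 4 (Zfp992, Zfp981, Zfp993 and Zfp991). Over all 58 genes, 14 kept 1 sign in all 4 organs, or 24.1%, against 18.9% of all tested genes. In the same interval, 3 of the 16 other genes of the table were also lower in FFPE and 0 higher, with 0.735% of all tested genes lower. Their differences were -2.40 for 1700095A21Rik (adjusted p = 0.0287), -1.01 for Gm13238 (adjusted p = 0.00403) and -0.78 for Znf41-ps (adjusted p = 0.00492, all limma). 1700095A21Rik overlaps Zfp981 and Zfp993, so its fall is not separate from theirs, and it had only -0.82 log2 CPM in FFPE liver. Results without single libraries are not given here for these other genes. The FFPE and frozen libraries did not overlap for 8 of the 58 genes, or 13.8%, against 3.15% of all tested genes. Beside the 4 called genes these were Zfp982, Zfp954 and Zfp995, higher in each FFPE library, and Zfp967, lower. At an unadjusted p under 0.05, 13 of the 58 genes (22.4%) stood out, against 10.7% of all tested genes. The median difference of the 58 genes was 0.01, beside 0.02 in all tested genes and 0.11 in other Zfp genes.

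The calls depended on single libraries. Leaving out either library of an organ removes that organ from the comparison. The calls of Zfp992, Zfp981 and Zfp991 were lost without either library of brain, heart or liver and held without either of kidney, with adjusted p values up to 0.235, 0.373 and 0.343 over all alternatives. Zfp987 was lost without either library of heart or liver, with adjusted p values from 0.00208 to 0.138. The differences themselves stayed between 1.15 and 1.77 for Zfp987 and between -1.52 and -1.03 for Zfp981 without any one library.

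Other genes separated by preservation without a call. Zfp982, a chromosome 4 gene with 16 CpG in its window, had 5.28, 5.26, 5.60 and 5.16 log2 CPM in FFPE brain, heart, kidney and liver, against 4.94, 4.20, 3.79 and 4.95 in frozen brain, heart, kidney and liver. The FFPE values were close together and above all frozen ones, with a difference of 0.86 ± 0.25 (adjusted p = 0.14, limma). Zfp954, on proximal chromosome 7, had 4.13, 4.44, 4.43 and 4.31 log2 CPM in FFPE brain, heart, kidney and liver, against 2.87, 3.72, 2.04 and 3.85 in frozen brain, heart, kidney and liver. Here too the FFPE values were level and the frozen ones lower and spread, lowest in frozen kidney, with a difference of 1.21 ± 0.35 (adjusted p = 0.144, limma). Zfp979 (Ssm1b) had 4.48, 4.41, 4.29 and 4.97 log2 CPM in FFPE brain, heart, kidney and liver, against 4.81, 4.36, 5.47 and 3.82 in frozen brain, heart, kidney and liver. Its groups overlapped and it was not called in any comparison, nor was Zfp932, whose 8 values lay between 3.22 and 3.90 log2 CPM. In the chromosome 17 cluster 0 of 10 genes were called between FFPE and frozen tissue, and its summed signal differed by -0.32 in brain, 0.08 in heart, 0.20 in kidney and 0.42 in liver.

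The chromosome 2 family gave no call between FFPE and frozen tissue. Zfp967 had 3.86, 3.09, 2.17 and 3.09 log2 CPM in FFPE brain, heart, kidney and liver, against 4.15, 4.31, 3.97 and 4.02 in frozen brain, heart, kidney and liver. All 4 FFPE values lay below all 4 frozen values. Zfp966, with the identical promoter window and the same gene length of 12818 bases, had 3.91, 3.50, 4.11 and 3.62 log2 CPM in FFPE brain, heart, kidney and liver, against 4.15, 4.82, 3.79 and 4.09 in frozen brain, heart, kidney and liver, and its groups overlapped. The summed signal of the 8 genes differed by -0.07 in brain, 0.14 in heart, -0.36 in kidney and 0.08 in liver. Counted by gene, 6 of the 8 had a negative difference, with a median of -0.30 and medians of -0.12 in brain, -0.52 in heart, -0.42 in kidney and -0.28 in liver, so sum and median differ in sign in heart and liver. No test was made of the sums or medians.

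Between organs the design asks how brain, heart, kidney and liver differ, and each organ was set against the mean of the other 3 in the same limma fit. Of the 58 genes, 1 rose and 2 fell in brain and 2 rose and 3 fell in liver, or 5.17% and 8.62% called. Over all tested genes, 21.4% were called in brain (8.61% higher and 12.8% lower) and 19.2% in liver (11.8% higher and 7.42% lower). In heart and kidney 0 of the 58 were called in limma. Over all tested genes, 2.14% were called in heart (0.162% higher and 1.97% lower) and 1.46% in kidney (0.897% higher and 0.566% lower). With no adjustment, at a p under 0.05, 11 of the 58 genes stood out in brain, 1 in heart, 8 in kidney and 11 in liver, against 36.7%, 14.6%, 18.6% and 32.6% of all tested genes. With voom precision weights, 0 were called in heart and 1 in kidney (Zfp933, higher). The comparisons share libraries, so brain and liver calls are not independent of each other.

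Zfp956, on chromosome 6, had the largest fall in brain among the called genes. It had 5.48 and 4.42 log2 CPM in FFPE and frozen brain, against 6.16 and 5.56 in FFPE and frozen heart, 6.11 and 6.23 in FFPE and frozen kidney and 6.35 and 5.55 in FFPE and frozen liver. Both brain values lay below all 6 others, frozen brain by far the most. The difference was -1.04 ± 0.21 (SE; adjusted p = 0.00328, limma), a 2.06-fold lower signal. Its span overlaps Zfp783.

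Zfp941, on distal chromosome 7, was lower in brain and higher in liver. It had 6.21 and 5.37 log2 CPM in FFPE and frozen brain and 6.74 and 6.78 in FFPE and frozen liver, against 6.42 and 6.32 in FFPE and frozen heart and 6.70 and 6.34 in FFPE and frozen kidney. The brain values lay below all others and the liver values above all others, though FFPE kidney came close to FFPE liver. The brain difference was -0.76 ± 0.18 (adjusted p = 0.00753) and the liver difference 0.53 ± 0.18 (adjusted p = 0.0456, both limma). Without frozen brain the brain calls of Zfp956 and Zfp941 were lost, with differences of -0.73 and -0.41 and adjusted p values of 0.188 and 0.381, the highest over all alternatives.

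Zfp980, in the chromosome 4 cluster, showed the reverse order of organs. It had 6.00 and 6.17 log2 CPM in FFPE and frozen brain and 5.05 and 4.74 in FFPE and frozen liver, against 5.78 and 6.14 in FFPE and frozen heart and 5.34 and 5.61 in FFPE and frozen kidney. Both liver values lay below all others, while the brain values overlapped those of heart. It fell by 0.94 ± 0.19 in liver (adjusted p = 0.00295) and was 0.64 ± 0.19 higher in brain (adjusted p = 0.0269, both limma). The liver call was lost without frozen liver, where its adjusted p of 0.143 was the highest of 0.000503 to 0.143. The brain call was lost without FFPE brain, frozen brain, FFPE heart or frozen liver and when library medians were centred.

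Zfp984, next to last in the same cluster before Zfp933, had 5.26 and 4.68 log2 CPM in FFPE and frozen liver, against 5.96 and 5.75 in FFPE and frozen brain, 5.91 and 5.53 in FFPE and frozen heart and 5.45 and 5.40 in FFPE and frozen kidney. Both liver values were below the rest, by -0.70 ± 0.19 (adjusted p = 0.0182, limma). Zfp945, in the chromosome 17 cluster, had 3.15 and 3.11 log2 CPM in FFPE and frozen liver, against 4.27 and 4.96 in FFPE and frozen brain, 4.59 and 4.36 in FFPE and frozen heart and 3.75 and 3.51 in FFPE and frozen kidney. Liver was again below all 6 other libraries, with kidney next, and the difference was -1.11 ± 0.33 (adjusted p = 0.0291, limma). Zfp939 was higher in liver by 0.81 ± 0.26 (adjusted p = 0.0402, limma), with 4.91 and 5.81 log2 CPM in FFPE and frozen liver. It had 3.91 and 4.63 in FFPE and frozen brain, 4.46 and 4.43 in FFPE and frozen heart and 4.36 and 5.47 in FFPE and frozen kidney, so FFPE liver lay below frozen kidney. Its span overlaps Gm5590.

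These smaller liver calls rested on several libraries and on the scaling. The call of Zfp945 was lost under quantile normalization and with library medians centred, that of Zfp984 with medians centred, that of Zfp939 under quantile normalization, and that of Zfp941 under quantile normalization and without the filter on low values. Among libraries, the call of Zfp984 was lost without FFPE heart, FFPE liver or frozen liver. Those of Zfp941 and Zfp945 were lost without FFPE heart, FFPE liver, frozen brain, frozen heart or frozen liver. That of Zfp939 was lost without FFPE brain, FFPE liver, frozen brain, frozen heart or frozen liver. Their adjusted p values reached 0.286, 0.547, 0.201 and 0.365 over the alternatives for Zfp984, Zfp941, Zfp945 and Zfp939.

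**Figure D4:**
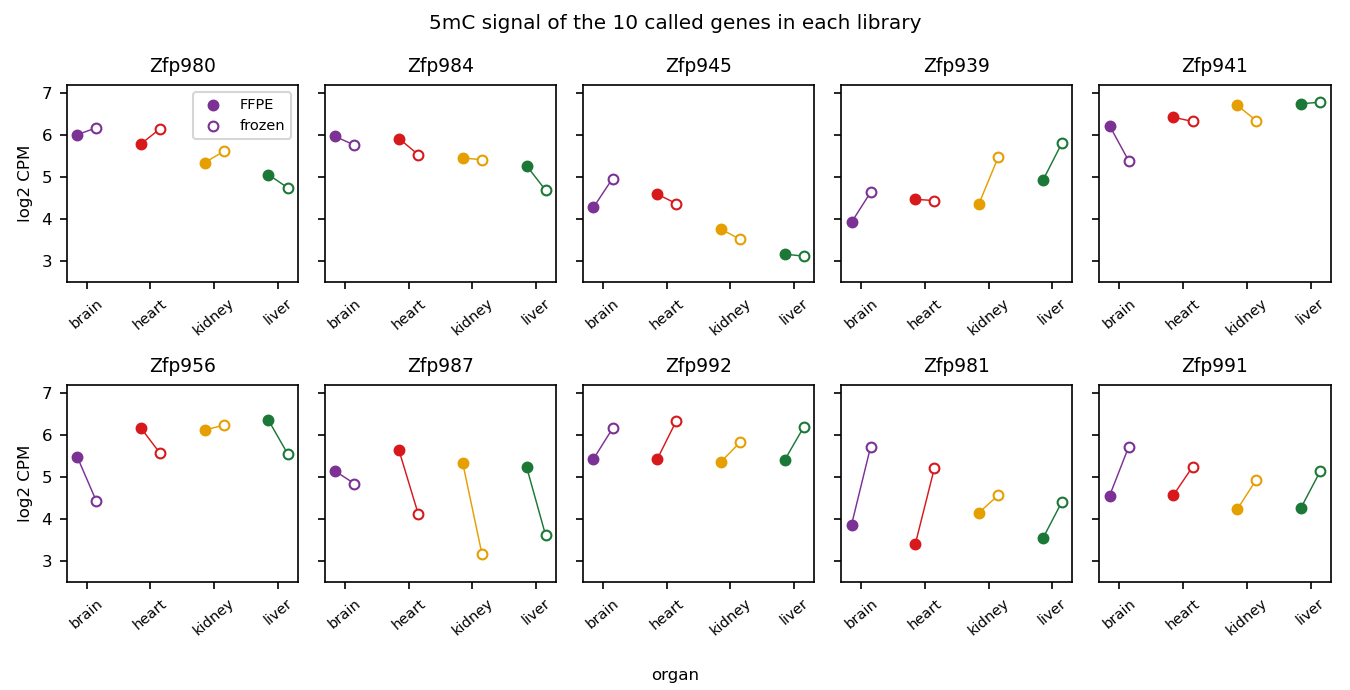
Log2 CPM (vertical axis) of the 10 genes called in any comparison, by organ (horizontal axis), with FFPE as filled and frozen as open points joined by a line. Zfp987, Zfp992, Zfp981 and Zfp991 separate by preservation in all 4 organs, whereas Zfp980, Zfp984 and Zfp945 are lowest in liver with either preservation.

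Median differences of genes in clusters and of genes outside them had opposite signs in brain and liver over both preservations, but not within frozen liver. Of the 31 genes in clusters, 26 had a positive brain difference and 25 a negative liver difference, with medians of 0.28 and -0.36. Of the 26 genes outside clusters, 8 had a positive brain difference and 10 a negative liver difference, with medians of -0.13 and 0.08. Outside means outside the clusters as defined above, and not that a gene stands alone. The 26 include Zfp967, Zfp973, Zfp970, Zfp971 and Zfp931 of the chromosome 2 family. Of these, Zfp967 has the same promoter window as Zfp966, which was counted in a cluster. Zfp935 and Zfp934, close together on chromosome 13, are also among the 26. The medians kept their signs under quantile normalization (0.18 and -0.18 in clusters, -0.24 and 0.21 outside) and with library medians centred (0.13 and -0.16 in clusters, -0.28 and 0.28 outside). Within FFPE tissue the medians in clusters were 0.19 in brain and -0.22 in liver, against -0.21 and 0.12 outside clusters. Within frozen tissue they were 0.62 and -0.41 in clusters, against -0.03 and -0.05 outside, where 13 of 26 genes were negative in liver. In the chromosome 4 cluster 10 of 11 genes had a positive brain difference (median 0.47) and 9 of 11 a negative liver difference (median -0.33), and both medians kept their signs under these scalings. In the chromosome 17 cluster 9 of 10 genes had a negative liver difference (median -0.44), against 6 of 10 under quantile normalization (median -0.21). Its brain difference was positive for 7 of 10 genes (median 0.13), but for 5 of 10 under quantile normalization (median -0.12) and 5 of 10 with library medians centred (median -0.03), so its sign in brain rests on the scaling. It also rests on frozen tissue, with a median of 0.93 there (7 of 10 positive) and -0.0025 within FFPE tissue (5 of 10). The 3 genes of the chromosome 2 cluster had medians of 0.04 in brain and 0.09 in liver, where 2 of 3 were positive, and under quantile normalization 0 of 3 were positive in brain (median -0.34). Their brain medians were 0.50 within FFPE and -0.18 within frozen tissue. In brain the chromosome 4, 7 and 8 clusters had medians of 0.17, 0.50 and 0.53 within FFPE tissue. Within frozen tissue they were 0.62, 0.63 and 0.86. In liver the medians within FFPE tissue were -0.27, -0.17, -0.30, 0.21 and 0.02 in the chromosome 4, 17, 7, 2 and 8 clusters. Within frozen tissue those liver medians were -0.44, -0.50, -0.22, -0.10 and -0.96. The signs in liver of the chromosome 2 and 8 clusters thus differed between FFPE and frozen tissue. Other genes of the table in the same intervals did not all follow the clusters. The 16 in the chromosome 4 interval had medians of -0.26 in brain and 0.13 in liver, opposite in sign to the cluster. In the chromosome 17, 7 and 8 intervals the medians were 0.49, 0.75 and 0.76 in brain. In liver they were -0.24, -0.22 and -0.30, the signs of those clusters as deposited. In the chromosome 2 interval they were -0.08 in brain and -0.37 in liver. All tested genes had medians of 0.11 in brain and -0.10 in liver. Over all tested genes, 55.4% had a positive brain difference and 55.6% a negative liver difference. No test was made of these lists, whose genes share libraries and in part sequence. Non-overlap with the other organs was seen for 4 of the 58 genes in brain (6.90%), 7 in liver (12.1%) and 2 each in heart and kidney (3.45%), against 28.3%, 22.0%, 8.25% and 7.91% of all tested genes.

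Set beside the other numbered Zfp genes, the 58 genes differed in their medians in brain and liver, and the difference between the sets was not tested. Of 332 other Zfp genes tested, 8 rose and 113 fell in brain, and 95 rose and 19 fell in liver. The median brain difference was 0.09 in the 58 genes, against -0.34 in other Zfp genes and 0.11 in all tested genes. In liver the medians were -0.22, 0.25 and -0.10 for the same sets. With library medians centred, the median of the 58 genes became -0.06 in brain and -0.02 in liver, so its sign in brain rests on the scaling, while other Zfp genes had -0.50 in brain and 0.45 in liver. Of the brain calls over all genes 40.2% were higher, against 47.6% under quantile normalization and 24.7% with library medians centred. In liver these shares were 61.3%, 50.1% and 79.6%, and in heart 7.57%, 31.8% and 3.27%. Medians of the 58 genes within FFPE tissue were 0.01 in brain and -0.12 in liver, against 0.25 and -0.25 within frozen tissue. In heart and kidney the medians of the 58 genes were 0.17 and -0.08, against 0.09 and 0.07 in other Zfp genes and 0.07 and -0.02 in all tested genes.

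**Figure D5:**
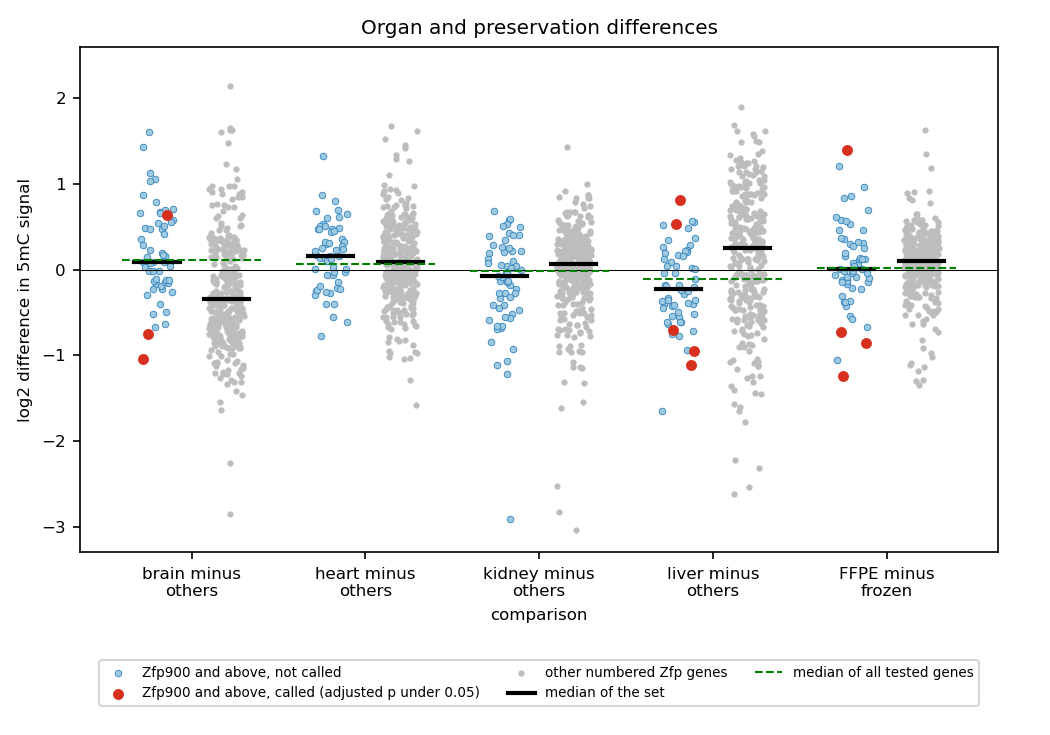
Log2 difference in 5mC signal (vertical axis) for each comparison (horizontal axis), with 1 point per gene, the 58 genes of Zfp900 and above on the left and the other numbered Zfp genes on the right of each pair. Black bars give each set's median and the dashed line the median of all tested genes; 1 point of the other Zfp genes lies beyond the axis.

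Calls were also counted by promoter CpG content. Among the 44 genes of Zfp900 and above with fewer than 15 CpG in the window, 1 rose and 1 fell in brain, and 2 rose and 3 fell in liver. Among the 8 with 15 or more CpG, 0 rose and 1 fell in brain, and 0 were called in liver. Of 128 other Zfp genes with fewer than 15 CpG, 4 rose and 31 fell in brain (24.2% lower), and 26 rose and 10 fell in liver (20.3% higher). Of 144 with 15 or more CpG, 3 rose and 57 fell in brain (39.6% lower), and 49 rose and 7 fell in liver (34.0% higher). Over all tested genes with fewer than 15 CpG, 12.3% were higher and 6.82% lower in brain, and 7.69% higher and 9.84% lower in liver. With 15 or more CpG, 4.62% were higher and 21.7% lower in brain, and 17.8% higher and 4.93% lower in liver. The part of CpG content in the difference between the sets was not tested. The correlation of the brain difference with the CpG count was -0.24 (Pearson) and -0.26 (Spearman) across 52 genes, a description across genes that share libraries. The same values were 0.03 and -0.001 for liver, 0.29 and 0.30 for kidney and -0.15 and -0.05 for heart.

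Genes of the machinery that KRAB zinc finger proteins work through were called in either direction at 20.8% in liver and 29.2% in brain. Over all tested genes these shares were 19.2% and 21.4%. The brain calls of the list were all falls and the liver calls all rises. Over all tested genes, 12.8% were lower in brain and 11.8% higher in liver. The list was not tested, and nothing particular to it is read from these shares. Of the 24 genes, 7 fell in brain and 0 rose. The brain differences were -1.03 ± 0.32 (SE) for Trim28, the KRAB corepressor, and -0.88 ± 0.14 for Atf7ip, the partner of SETDB1. They were -0.72 ± 0.13 and -0.55 ± 0.13 for the nucleosome remodellers Chd4 and Chd3 and -0.67 ± 0.16 for the de novo DNA methyltransferase Dnmt3a. Morc3 had -0.57 ± 0.15 and the histone chaperone Daxx -0.56 ± 0.17. In liver 5 rose and 0 fell, with differences of 1.17 ± 0.17 for Daxx, 0.91 ± 0.13 for Chd4, 0.62 ± 0.15 for Morc3, 0.49 ± 0.14 for Atf7ip and 0.42 ± 0.13 for the maintenance methyltransferase Dnmt1. In kidney the HP1 gene Cbx5 fell by 1.39 ± 0.32 (adjusted p = 0.0435, limma). It was 4.17% of the list, with 0.566% of all tested genes lower in kidney. None of the 24 was called in heart or between FFPE and frozen tissue in limma, with 3 and 1 at an unadjusted p under 0.05. Results under other settings or without single libraries are not given here for these 24 genes. The values are 5mC signal over these genes and not their expression.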

How the data were processed

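MeDIP-seq libraries of 4 mouse organs, FFPE and frozen, were compared. Per the submitters' processing notes, the authors used Bowtie2, featureCounts, limma and the mm10 build. Tool versions, counted feature, strand and the use of multi-mapping reads are not stated there. The authors deposited log2 CPM (counts scaled to library size) in 8 columns that name neither antibody nor replicate. The columns were read as 5mC from the table's MeDIP-Seq name, and it is not stated whether they pool replicates.

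All deposited log2 values stepped back to whole reads (tolerance 0.0001, with 0.5 added to each count), which were used for depth and floors (3 reads) and for 2 alternatives, a prior count of 2 and voom weights. limma 3.58.1 (R 4.3.3) was fitted to organ plus preservation over 8 columns and 25982 genes. The fit had a trend in the variance, with 3 residual and 13.1 prior degrees of freedom. It was also run on simulated counts with a common dispersion and no library set apart. That run cannot show how the fit behaves where single libraries stand apart, as frozen kidney did. The SE and p start from how far a difference varied across organs or preservations, since no group has a second column. That spread was moderated towards the trend over all genes with 13.1 prior degrees of freedom. The SE and p therefore do not measure a gene's own spread alone. Genes were placed by Entrez ID on RefSeq GRCm38.p6. Promoter windows run from 250 bases before to 50 after the most upstream start among the RefSeq windows listed for a gene. That start can lie inside the annotated span, as for Zfp981 and Zfp984. No protein sequence was used here. The members, lists and alternatives were chosen with earlier results of these data known. The genes named were those called, the 5 highest and 5 lowest per kilobase, those with 0 reads in a library and the genes of the clusters. Other genes named were called genes of the cofactor list and of the chromosome 4 interval, and the choice of that interval was made after values were seen. Zfp982, Zfp954, Zfp995, Zfp966 and Zfp967 were named after their values or sequences were seen, and Zfp979 and Zfp932 for their known roles.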

Additional observations from a re-analysis of the deposited data

How the results depend on the processing

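The counts of called Zfp genes are small and moved with the settings. Under quantile normalization 3 rose in brain and 0 in liver, all liver calls numbered 2507, against 4985 with values as deposited, and the median liver difference of the 58 genes was -0.10. With library medians centred, 0 rose and 5 fell in brain, 1 fell in liver, heart calls numbered 888 over all genes, Zfp991 was lost between FFPE and frozen tissue, and the medians of the 58 genes were 0.089 in heart and -0.0223 in liver. Without the filter on low values 1 rose in liver, 1 fell in FFPE tissue (Zfp981 and Zfp991 were lost) and all kidney calls numbered 158. With voom weights 6 rose in brain and 1 in kidney, and all kidney calls numbered 983. A prior count of 2 kept every count within 1.5 times. Leaving out 1 library at a time, with a lone library assumed to vary like the others, gave 172 to 453 calls over all genes between FFPE and frozen tissue, 746 to 9158 in brain, 4 to 2103 in heart, 24 to 3786 in kidney and 1469 to 7262 in liver. Of the 58 genes, 0 to 2 rose and 0 to 3 fell in FFPE tissue, 0 to 10 rose and 0 to 5 fell in brain, 0 to 1 rose and 0 fell in heart, 0 to 5 rose and 0 to 5 fell in kidney, and 0 to 2 rose and 0 to 8 fell in liver. The highest counts in brain and kidney came without FFPE kidney, and the 8 falls in liver came without either kidney library. Medians ranged from -0.03 to 0.07 (FFPE), 0.01 to 0.25 (brain), 0.13 to 0.21 (heart), -0.21 to -0.042 (kidney) and -0.34 to -0.12 (liver). The cause of these changes was not tested. No called gene reversed under any of these settings. No paired analysis was possible by replicate, because the columns carry no replicate number, while FFPE and frozen libraries were paired by organ in the fit.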
